A study of Homo sapiens with 36 samples.

Results

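The mitochondrial ribosomal protein genes of THP-1 monocytes were taken as the protein-coding genes whose symbol starts with MRPL or MRPS followed by a number, pseudogenes excluded, and 78 of the 57500 gene rows met this rule. They comprised 51 genes for proteins of the large subunit, 26 for the small subunit, and MRPS36, whose product is known as a component of the 2-oxoglutarate dehydrogenase complex and was put in no subunit. Symbols do not always name the subunit, since MRPS30 and MRPS18A encode large-subunit proteins. Of the large-subunit genes, 30 were classed as having a bacterial counterpart and 21 as mitochondria-specific. The small-subunit genes divided into 16 and 10 on the same basis. MRPS18A and MRPS18B were classed as mitochondria-specific although they are homologues of bacterial S18. The genes lie on 21 chromosomes, with no more than 8 on any of them.

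THP-1 is a human monocytic leukaemia cell line. Bulk poly(A)-selected RNA-seq was available for 36 libraries in 12 conditions of 3 replicates. The cells were lentivirally transduced lines carrying a non-target hairpin (shNT), a hairpin against NR4A2 (shNR4A2) or a hairpin against NR4A3 (shNR4A3), so each hairpin is represented by a single stable line. All were kept for 4 h in buffered medium at 5% CO2 or 10% CO2 (buffered hypercapnia), either unstimulated (basal) or with 2.5 µg/ml lipopolysaccharide (LPS, the bacterial cell-wall component sensed by TLR4) for the last 2 h. The labels do not say what separates the replicates, and the study's figure legends call them individual experiments. The p-values describe the spread between these libraries.

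The mitochondrial ribosome translates the small set of messages encoded by mitochondrial DNA, all of which are membrane subunits of the respiratory chain and ATP synthase. Its RNAs are transcribed inside the organelle, whereas every protein is encoded in the nucleus, made in the cytosol and imported, so that building the particle requires coordinated output of many genes scattered over the genome. In monocytes, as in other cells, respiration depends on this translation system.

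The promoters of these genes were examined for shared letters. Of the 78 genes, 69 matched an entry of the RefSeq promoter table (GRCh38.p14, 250 bases before to 50 after the start), and 4 short motifs of factors with known roles at promoters of housekeeping and nuclear-encoded mitochondrial genes were searched on both strands. The promoter windows of MRPL46 and MRPS11, which lie head to head on chromosome 15, overlap each other. The letters of no motif contain those of another. The YY1 letters AAGATGGCG occurred in 13 members (18.8%), against 1.85% of all 27305 promoters and 2.74% of the protein-coding ones. The ETS letters CCGGAAGT occurred in 11 members (15.9%), against 4.44% of all promoters and 6.19% of protein-coding ones. The SP/KLF letters GGGCGGG occurred in 34 members (49.3%), against 32.9% of all promoters and 44.4% of protein-coding ones. The NRF1 palindrome, in capitals in the MRPL17 window further on, occurred in 1 member (1.45%), against 1.36% of all promoters and 1.75% of protein-coding ones. A match is a description of the letters and not a binding site.

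The following windows carry the YY1 letters in capitals and are shown because this string set the genes apart most from other promoters. They belong to MRPS30 (chr5:44808950-44808978, + strand), MRPS24 (chr7:43869480-43869508, - strand), MRPS18B (chr6:30617853-30617881, + strand), MRPL42 (chr12:93467512-93467540, + strand) and MRPL46 (chr15:88467362-88467390, - strand), each read 5′ to 3′ along the gene's strand. In these 5 genes the first letter of the string lay 13, 19, 23, 8 and 8 bases downstream of the annotated start. Not all matches lay downstream, since MRPL52 had the string at -98 and -64. Its reverse complement lay at -36 in MRPL36 and -223 in MRPL32.
MRPS30: atcgcgggcaAAGATGGCGgcggccaggt
MRPS24: cgcttggcccAAGATGGCGgcctccgtgt
MRPS18B: ggcgtacgtcAAGATGGCGgcgtctgtat
MRPL42: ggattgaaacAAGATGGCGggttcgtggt
MRPL46: gggagaacgaAAGATGGCGgcgcccgtaa

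The next windows carry the ETS or NRF1 letters in capitals and are shown for genes whose transcript values are described further on. They belong to MRPL3 (ETS, chr3:131502985-131503014, - strand), MRPL16 (ETS as its reverse complement, chr11:59810767-59810796, - strand), MRPS34 (ETS as its reverse complement, chr16:1773136-1773165, - strand) and MRPL17 (NRF1, chr11:6683402-6683431, - strand).
MRPL3: tgtaaaacgcaCCGGAAGTgggtccggcgg
MRPL16: gagtgaacacaACTTCCGGccccactgagc
MRPS34: ctcttccggtgACTTCCGGccggaccgctg
MRPL17: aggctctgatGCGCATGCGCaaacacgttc

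The libraries held 16171161 to 23929138 counts assigned to genes (median 19639071), of which 46682 to 91267 fell in the 78 genes (0.272% to 0.411%). NR4A2 in unstimulated cells was at 1.07 to 2.41 TPM (a gene's length-normalised share of all transcripts) in shNR4A2 libraries and 1.49 to 4.16 TPM in shNT libraries, and with LPS at 13.4 to 28.3 and 43.97 to 74.7 TPM. NR4A3 with LPS was at 12.5 to 19.98 TPM in shNR4A3 and 30.65 to 38.6 TPM in shNT libraries, while without LPS it was under 1 TPM in both lines. The 8 monocytic markers (CD33, LYZ, SPI1, CSF1R, CD14, ITGAM, FCER1G and TYROBP) were detected in every library. Of the markers of other cell types reported here, MS4A1 had no count in 28 libraries, CD3E, CD3D, EPCAM and COL1A1 had medians of 0.0624 to 0.533 TPM, and PECAM1, which monocytes also express, had a median of 166 TPM. In bulk RNA, fewer expressing cells and less RNA per cell cannot be told apart.

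All 78 genes were detected in every library and passed the low-count filter. Levels are given in TPM, computed from the counts and the exonic length of each gene so that genes can be compared with each other. Mean TPM over the 36 libraries ranged from 6.71 to 324.6, with a median of 45.8. At or above 100 TPM were 16 genes, 61 lay between 10 and 100 TPM, and MRPL46 alone was lower. The highest levels belonged to MRPL37, a mitochondria-specific large-subunit protein (chr1:54184041-54225464, 233 to 387 TPM), MRPL18, the counterpart of bacterial L18 in the central protuberance (chr6:159789812-159798436, 174 to 401 TPM), and MRPS34, a mitochondria-specific small-subunit protein (chr16:1771890-1773155, 144 to 426 TPM). The lowest belonged to MRPL46 of the central protuberance (3.91 to 9.19 TPM), MRPL42 (8.85 to 13.9 TPM) and MRPL38, also of the central protuberance (9.17 to 19.1 TPM). In the order of mean levels, 67 of the 77 neighbouring pairs differed by less than the larger within-condition SD of the pair, so only the coarse order can be read. The median level was 57.5 TPM for large-subunit proteins with a bacterial counterpart, 54.5 TPM for mitochondria-specific large-subunit proteins, 41.5 TPM for small-subunit proteins with a bacterial counterpart and 32.01 TPM for mitochondria-specific small-subunit proteins.

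The coefficient of variation over all 36 libraries had a median of 14.7%, from 6.96% for MRPL47, a protein at the exit tunnel, to 41.2% for MRPS24, the counterpart of bacterial S3 at the mRNA entry site. After MRPS24, the most variable were MRPS26 (38.9%), MRPL34 (34.7%) and MRPS34 (31.1%).

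Summed over the 78 genes, levels were 4267 to 6560 TPM per library. In unstimulated shNT cells the 3 libraries at 5% CO2 held 5601, 5720 and 5897 TPM and those at 10% CO2 held 5748, 6285 and 6560 TPM, which overlapped. With LPS the shNT libraries held 4842, 5090 and 5236 TPM at 5% CO2 and 4952, 5069 and 5299 TPM at 10% CO2, all below every unstimulated shNT library. The same order was seen in shNR4A2 cells, at 5421 to 6450 TPM without LPS and 4368 to 4812 TPM with LPS, and in shNR4A3 cells, at 5572 to 6068 TPM without LPS and 4267 to 5038 TPM with LPS. The log2 ratio of the summed TPM at 10% over 5% CO2 was 0.11 in basal shNT, 0.01 in LPS-stimulated shNT, 0.09 and -0.02 in basal and LPS-stimulated shNR4A2, and 0.04 and 0.08 in basal and LPS-stimulated shNR4A3 cells. TPM is a share of all transcripts, and the share of counts in mitochondrially encoded genes moved with CO2, from 1.05% to 2.19% in the libraries at 5% to 1.54% to 4.15% in those at 10%. With these genes left out of the total, the log2 ratios were 0.18, 0.12, 0.15, 0.04, 0.10 and 0.09 in the same order, so the value for LPS-stimulated shNR4A2 cells changed sign. The lower sums with LPS are also shares of the library. The median log2 fold change of the 78 genes with LPS was 0.005, -0.066 and -0.089 in shNT, shNR4A2 and shNR4A3 cells with TMM scaling, and -0.188, -0.289 and -0.301 with library totals, where all genes had medians of -0.207, -0.242 and -0.225.

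**Figure D1:**
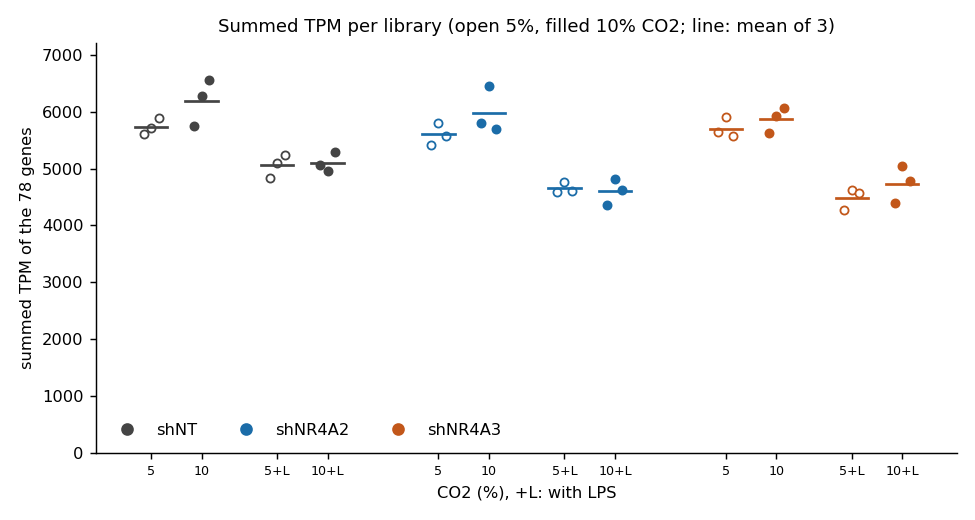
Summed TPM of the 78 mitochondrial ribosomal protein genes (vertical axis) in each of the 36 libraries, by CO2 level with or without LPS (horizontal axis), with open points at 5% and filled points at 10% CO2 and a line at the mean of 3. In each line the 6 LPS libraries lie below the 6 unstimulated ones, with shNT at 4842 to 5299 TPM with LPS against 5601 to 6560 TPM without.

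The first comparison asked whether buffered hypercapnia changed these transcripts, averaged over the 6 states given by the 3 lines with and without LPS. Of the 78 genes, 39 were called (adjusted p under 0.05, edgeR's quasi-likelihood test with Benjamini-Hochberg adjustment over all 17720 genes tested), 37 higher and 2 lower at 10% CO2. Of all tested genes 36.4% were called, 17% higher and 19.4% lower. The differences were small, with a median log2 fold change of 0.10 over the 78 genes, against -0.004 over all tested genes, and a range from -0.13 to 0.34. Both genes that fell encode large-subunit proteins. By class, 18 of 30 large-subunit genes with a bacterial counterpart rose, with a median log2 fold change of 0.16, as did 7 of 21 mitochondria-specific large-subunit genes (median 0.07). In the small subunit, 5 of 16 genes with a bacterial counterpart (median 0.08) and 6 of 10 mitochondria-specific genes (median 0.13) rose. MRPS36 also rose, by a log2 fold change of 0.15 ± 0.05 (SE, adjusted p = 0.016, edgeR).

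**Figure D2:**
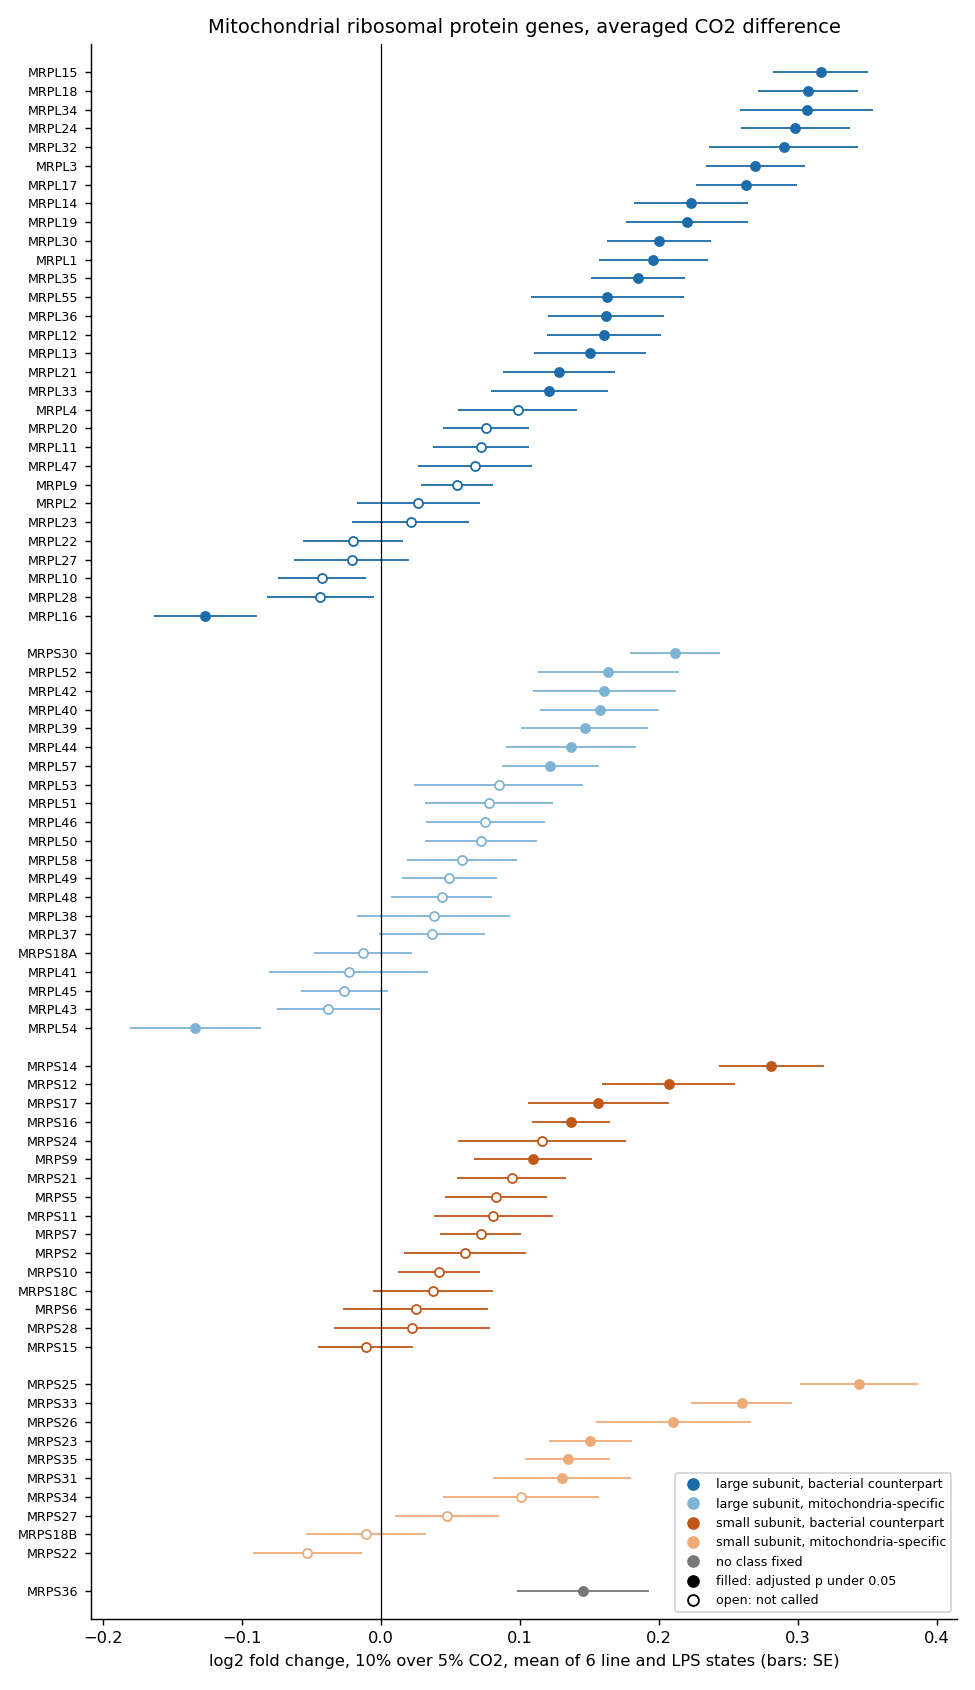
Log2 fold change at 10% over 5% CO2, averaged over 6 line and LPS states (horizontal axis, bars are SE), for each of the 78 genes (vertical axis), grouped by subunit and class. Filled points passed the adjusted threshold of 0.05 in edgeR's test, and all but MRPL16 and MRPL54 of these lie to the right of 0, none beyond 0.34.

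MRPL15, the counterpart of bacterial L15 in the body of the large subunit, had the smallest p. Its 18 libraries at 5% CO2 ranged from 154 to 203 TPM (median 163) and its 18 libraries at 10% from 166 to 233 TPM (median 197), overlapping across states. Its log2 fold change was 0.32 ± 0.03 (SE, adjusted p = 1.32e-08, edgeR). Within each of the 6 states taken alone, the 3 MRPL15 values at 10% lay above the 3 at 5%. In basal cells they were 164, 168 and 186 TPM against 207, 209 and 233 TPM in shNT, 159.7, 161 and 163 TPM against 183, 201 and 212 TPM in shNR4A2, and 161, 162 and 165 TPM against 173, 193 and 195 TPM in shNR4A3 cells.

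MRPL18 ranged from 174 to 335 TPM at 5% CO2 (median 257) and from 211 to 401 TPM at 10% (median 291), and its log2 fold change was 0.31 ± 0.04 (SE, adjusted p = 6.09e-08, edgeR). MRPL24, the counterpart of bacterial L24 near the exit tunnel, ranged from 80.8 to 107 TPM at 5% and from 91.1 to 134 TPM at 10%, and rose by 0.30 ± 0.04 (SE, adjusted p = 3.38e-07, edgeR). MRPL3, whose bacterial counterpart reaches toward the peptidyl transferase centre, ranged from 155 to 200.1 TPM at 5% and from 165 to 238 TPM at 10%, with a log2 fold change of 0.27 ± 0.04 (SE, adjusted p = 3.78e-07, edgeR). For these genes the ranges pooled over states overlapped. MRPL17, also at the exit tunnel, rose by 0.26 ± 0.04 (SE, adjusted p = 9.72e-07, edgeR) and MRPL34, a small protein of the large subunit, by 0.31 ± 0.05 (SE, adjusted p = 6.16e-06, edgeR). MRPL34 shares 13.2% of its exon bases with ABHD8 on the opposite strand, and the strand setting of the counting is not given in the sources used here. MRPS30, a mitochondria-specific protein of the large subunit despite its name, rose by 0.21 ± 0.03 (SE, adjusted p = 3.82e-06, edgeR).

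In the small subunit MRPS25, a mitochondria-specific protein, showed the largest log2 fold change of the 78 genes at 0.34 ± 0.04 (SE, adjusted p = 1.28e-07, edgeR). It ranged from 19.6 to 30.8 TPM at 5% CO2 (median 25.0) and from 24.4 to 38.8 TPM at 10% (median 29.5). MRPS25 shares 22.2% of its exon bases with NR2C2 on the opposite strand. MRPS14, the counterpart of bacterial S14, ranged from 24.9 to 35.8 TPM at 5% and from 28.9 to 43.8 TPM at 10% and rose by 0.28 ± 0.04 (SE, adjusted p = 5.88e-07, edgeR). MRPS33, another mitochondria-specific protein, ranged from 12.6 to 18.1 TPM and from 14.6 to 19.0 TPM, and rose by 0.26 ± 0.04 (SE, adjusted p = 1.12e-06, edgeR). MRPS12, the counterpart of the bacterial decoding-site protein S12, rose by 0.21 ± 0.05 (SE, adjusted p = 0.000859, edgeR). It shares 16.3% of its exon bases with SARS2 on the opposite strand.

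The 2 genes that fell were MRPL16 and MRPL54. MRPL16, the counterpart of bacterial L16 near the tRNA sites, had a median of 83.0 TPM at 5% CO2 (52.1 to 106) and 73.3 TPM at 10% (43.2 to 105), and a log2 fold change of -0.13 ± 0.04 (SE, adjusted p = 0.00747, edgeR). MRPL54, mitochondria-specific, had a median of 128 TPM at 5% (100.4 to 154) and 109 TPM at 10% (91.2 to 146), and a log2 fold change of -0.13 ± 0.05 (SE, adjusted p = 0.0246, edgeR). The pooled ranges overlapped for both. Within states, in TPM, the 3 values at 10% lay below the 3 at 5% in LPS-stimulated shNT and shNR4A2 cells for both genes, and for MRPL54 also in basal shNR4A3 cells. In LPS-stimulated shNT cells the log2 fold changes were -0.08 for MRPL16 and -0.05 for MRPL54. TPM there also carried the mitochondrially encoded share, 1.28% to 1.78% of counts at 5% and 2.28% to 4.15% at 10%. On TMM-scaled values each of the 2 genes was lower without overlap in 2 states. Neither was called when genes with low counts were kept in the test.

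**Figure D3:**
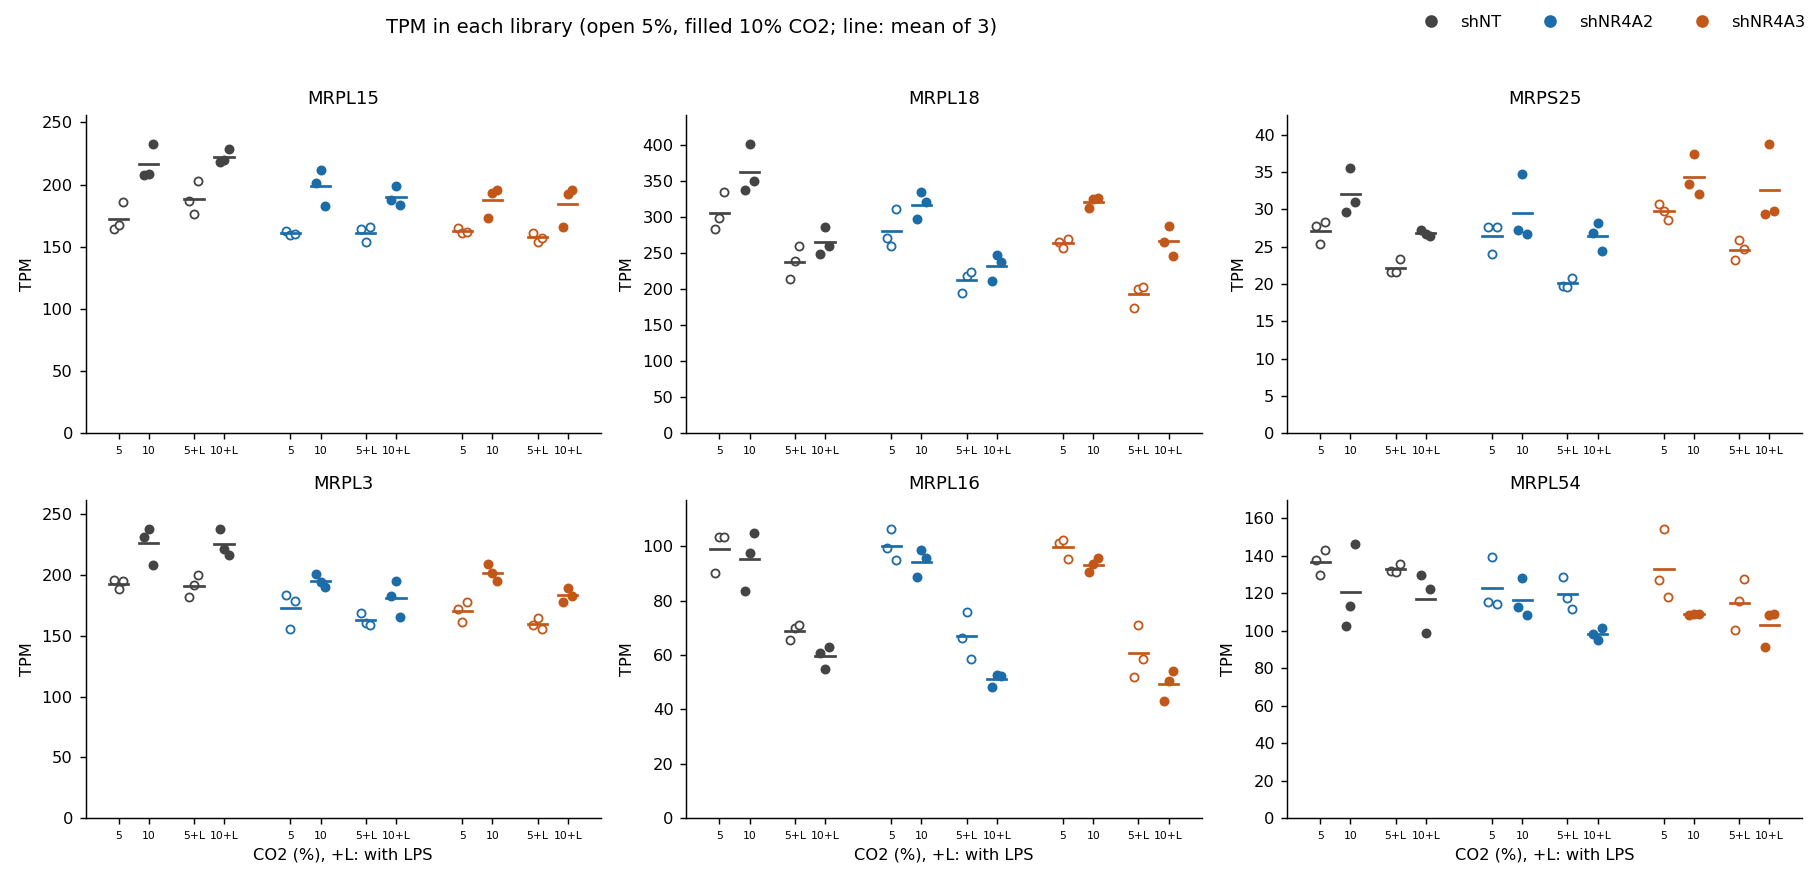
TPM (vertical axes, from 0) of 6 mitochondrial ribosomal protein genes in each of the 36 libraries, by CO2 level with or without LPS (horizontal axes), open points at 5% and filled points at 10% CO2, with a line at the mean of 3. MRPL15 separates in all 6 states (basal shNT 164 to 186 against 207 to 233 TPM). In TPM, MRPL16 and MRPL54 are lower at 10% without overlap in LPS-stimulated shNT and shNR4A2 cells. Their TMM-scaled log2 fold changes in LPS-stimulated shNT cells were -0.08 and -0.05.

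The averaged CO2 difference was also read by functional neighbourhood of the particle, where 17% of all tested genes were called higher and 19.4% lower. At the stalk, where translation factors dock, MRPL12 rose by 0.16 ± 0.04 (SE, adjusted p = 0.00244, edgeR), while MRPL10 and MRPL11 did not pass, at -0.04 ± 0.03 and 0.07 ± 0.03 (SE). MRPL12 shares 68.2% of its exon bases with an unnamed gene row on the same strand, the largest overlap of the 78 genes, and its value is uncertain for that reason. Around the exit tunnel, 4 of 8 genes rose, and MRPL45, which links the tunnel to the inner membrane, was at -0.03 ± 0.03 (SE). In the central protuberance 3 of 7 genes rose, and along the decoding site and mRNA path 1 of 5, MRPS12. MRPL58, a peptidyl-tRNA hydrolase built into the large subunit, was at 0.06 ± 0.04 (SE). The 3 homologues of bacterial S18 did not pass, at -0.01 ± 0.04 for MRPS18A, -0.01 ± 0.04 for MRPS18B and 0.04 ± 0.04 for MRPS18C (SE). These counts are not tests of one neighbourhood against another. Neither the most abundant genes (MRPL37 at 0.04 ± 0.04 and MRPS34 at 0.10 ± 0.06, SE) nor the rarest (MRPL46 at 0.08 ± 0.04, SE) passed, although MRPL18 and MRPL42 did, the latter at 0.16 ± 0.05 (SE, adjusted p = 0.014, edgeR).

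The same difference was read by promoter letters, where again 17% of all tested genes were called higher and 19.4% lower. Of the 11 members with the ETS letters, 2 rose and 1 fell, with a median log2 fold change of 0.08, against 30 higher and 1 lower of the 58 members without them (median 0.12). Of the 13 members with the YY1 letters 5 rose (median 0.08), and of the 56 without them 27 rose and 2 fell (median 0.10). Of the 34 with the SP/KLF letters 17 rose and 1 fell (median 0.11), and of the 35 without them 15 rose and 1 fell (median 0.08). MRPL17, the single gene with the NRF1 letters, rose. These are counts over small groups and carry no test, and calls among other genes with the same letters were not counted.

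Direction was shared across states more widely than calls were. The 6 states use separate libraries. Same-numbered libraries of different conditions tended to deviate together, with a median correlation of 0.330, so the states are not shown to be independent. In all 6 of them 35 of the 78 genes (44.9%) had a positive log2 fold change at 10% CO2, against 16.5% of all tested genes, and 19 more (24.4%, against 12% of all) did so in 5. Only MRPS22 and MRPL54 were positive in none (2.56%, against 17.3% of all). Genes within a library are not independent of each other.

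**Figure D4:**
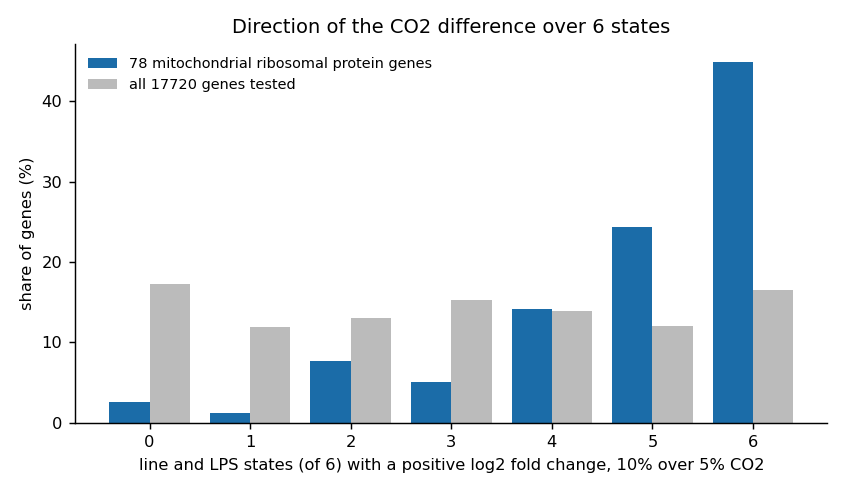
Share of genes (vertical axis, %) by the number of line and LPS states, of 6, in which the log2 fold change at 10% over 5% CO2 was positive (horizontal axis), for the 78 mitochondrial ribosomal protein genes and for all 17720 genes tested. The share positive in all 6 was 44.9% of the 78 genes and 16.5% of all.

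State by state, few differences passed with 3 libraries against 3, a size at which an exact two-sided permutation test cannot go below p = 0.1. In basal shNT cells no member passed in edgeR's test, where 0.615% of all genes did, although 24 had an unadjusted p under 0.05 (14.9% of all genes) and DESeq2 called 3 (3% of its genes with an adjusted p), MRPL15, MRPL24 and MRPL33. The median log2 fold change over the 78 genes was 0.175, against -0.007 over all genes, and 74 of the 78 were positive. The groups did not overlap, on TMM-scaled values, for 37 genes with higher values at 10% (11.3% of all genes) and for 1 gene with lower ones (8.56% of all). MRPL15 came closest, at 0.41 ± 0.10 (SE, adjusted p = 0.0776, edgeR). MRPS12 was at 56.9, 61.1 and 63.3 TPM at 5% and 64.5, 77.2 and 88.2 TPM at 10%, a log2 fold change of 0.43 ± 0.12 (SE, adjusted p = 0.129, edgeR) with no overlap. Without replicate 1 of the 10% CO2 group, 9 members were called, where 3.15% of all genes were.

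In LPS-stimulated shNT cells, 11 members were called by edgeR's test and all were higher at 10% CO2, where 8.19% of all genes were called and 4.47% were called higher. All but MRPS25 and MRPS33 were large-subunit genes (MRPL3, MRPL15, MRPL19, MRPL24, MRPL30, MRPL32, MRPL33, MRPL34 and MRPS30). MRPL30, the counterpart of bacterial L30, had 36.7, 37.5 and 38.4 TPM at 5% and 43.6, 45.1 and 47.4 TPM at 10%, a log2 fold change of 0.41 ± 0.08 (SE, adjusted p = 0.0137, edgeR), and 19.5% of its exon bases are shared with other rows. MRPL3 had 182, 192 and 200.1 TPM against 217, 221 and 238 TPM, a difference of 0.37 ± 0.08 (SE, adjusted p = 0.0167, edgeR). For both genes every library at 10% lay above every library at 5%. MRPS25 had 21.6, 21.6 and 23.4 TPM against 26.4, 26.8 and 27.2 TPM, a difference of 0.41 ± 0.09 (SE, adjusted p = 0.0195, edgeR). MRPL34 differed by 0.44 ± 0.10 and MRPL15 by 0.37 ± 0.09 (SE, adjusted p = 0.0228 for each, edgeR). The count rested on single libraries. It was 0 without replicate 1 or 2 of 5% CO2 with LPS or replicate 2 of 10% CO2 with LPS, 3 and 7 without replicates 3 and 1 of the latter group, and 18 without replicate 3 of the former. Of all genes 2.09%, 2.69% and 1.88% were called in the first 3 of these, 3.8% and 5.98% in the next, and 12.1% in the last.

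In basal shNR4A2 cells no member passed (0.0113% of all genes did), with 7 at an unadjusted p under 0.05 in edgeR's test (8.07% of all genes) and 0 called by DESeq2. The median log2 fold change was 0.13, against -0.001 over all genes, with 68 of 78 positive. Same-numbered libraries deviated together in this comparison, and with the replicate number as a block 5 members were called, all higher at 10%, where 2.04% of all genes were called. They were MRPL15, MRPL34, MRPS26, MRPS12 and MRPL17, named here after their values were seen. MRPS26, a mitochondria-specific small-subunit protein, had 37.5, 40.4 and 47.4 TPM at 5% and 49.95, 51.6 and 69.5 TPM at 10%, without overlap, and its blocked log2 fold change was 0.49 ± 0.11 (SE, adjusted p = 0.0341, edgeR). In LPS-stimulated shNR4A2 cells no member passed either (0.198% of all genes), with 4 at an unadjusted p under 0.05 in edgeR's test (16.3% of all genes), 1 called by DESeq2 (MRPS25, where DESeq2 called 4.36% of its genes with an adjusted p) and a median of 0.03. MRPS25 had 19.6, 19.7 and 20.8 TPM at 5% and 24.4, 26.9 and 28.1 TPM at 10%, not overlapping, at 0.45 ± 0.11 (SE, adjusted p = 0.0949, edgeR). Without replicate 3 of 5% CO2 with LPS, 2 members were called, MRPS25 and MRPL16, 1 higher and 1 lower, where 6.33% of all genes were called.

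In basal shNR4A3 cells no member passed (1.13% of all genes), with 14 at an unadjusted p under 0.05 in edgeR's test (16.7% of all genes), 1 called by DESeq2 (MRPL18, where DESeq2 called 4.55% of its genes with an adjusted p) and a median of 0.06. Same-numbered libraries deviated together here too, and the blocked fit called 3 members, MRPL18, MRPL3 and MRPL24, a smaller share than the 6.06% of all genes it called. MRPL18 had 256, 264 and 269 TPM at 5% and 312, 324 and 326 TPM at 10%, without overlap, at 0.31 ± 0.07 in the blocked fit (SE, adjusted p = 0.0172, edgeR) and 0.31 ± 0.08 without the block (SE, adjusted p = 0.0549, edgeR). In LPS-stimulated shNR4A3 cells 2 members were called, both higher (2.13% of all genes were called, 0.931% higher). MRPL18 had 174, 200.2 and 203 TPM at 5% and 245, 265 and 287 TPM at 10%, a log2 fold change of 0.52 ± 0.08 (SE, adjusted p = 0.0197, edgeR). MRPS25 had 23.2, 24.7 and 25.9 TPM against 29.4, 29.7 and 38.8 TPM, a difference of 0.46 ± 0.10 (SE, adjusted p = 0.0441, edgeR). Neither overlapped. No member was called without replicate 1 or 2 of 10% CO2 with LPS, and 1 was called without any one of the other 4 libraries, where 0.00564% and 0.705% to 2.02% of all genes were called.

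Whether the CO2 difference itself differed between lines or with LPS was tested by interaction terms. No member passed any of the 7 interactions in edgeR's test, nor under DESeq2 or any other alternative run, and of all genes 0% passed in 6 of them and 0.0226% in the interaction of CO2 with LPS in shNT cells. The number of members with an unadjusted p under 0.05 was 1 and 5 for shNR4A2 against shNT in the basal and LPS states, 3 and 1 for shNR4A3 against shNT, and 2, 4 and 2 for CO2 by LPS in shNT, shNR4A2 and shNR4A3 cells. Of all genes 1.08%, 2.58%, 2.33%, 2.09%, 5.78%, 5.1% and 5.62% did so in the same order. The largest of these was MRPL33, a large-subunit protein with a bacterial counterpart, whose CO2 difference in LPS-stimulated cells was 0.40 in shNT and -0.14 in shNR4A2, a difference of -0.52 ± 0.16 (SE, unadjusted p = 0.00446, adjusted p = 1, edgeR). MRPL33 had an unadjusted p under 0.05 in all 4 comparisons of lines, at -0.42 ± 0.16 for basal shNR4A2, -0.41 ± 0.13 for basal shNR4A3 and -0.30 ± 0.13 for LPS-stimulated shNR4A3 cells (SE), which share the shNT libraries within each state. MRPL33 was picked for this size after its values were seen, and 21.1% of its exon bases are shared with BABAM2 on the same strand. The larger call count in LPS-stimulated shNT cells is therefore not shown to be a difference between lines.

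The second comparison was LPS against no LPS within each line, averaged over both CO2 levels. It moved members in both directions, with log2 fold changes from -0.92 to 1.52 over the 3 lines. In shNT cells 27 members were called by edgeR's test, 11 higher and 16 lower, where 42.1% of all genes were called, 19.7% higher and 22.4% lower. In shNR4A2 cells 29 were called, 6 higher and 23 lower (42.6% of all genes, 19.4% higher and 23.1% lower), and in shNR4A3 cells 36, 7 higher and 29 lower (48.9% of all genes, 22.6% higher and 26.3% lower). The medians of all genes were -0.016, -0.020 and -0.014. These splits depended on scaling. With DESeq2's size factors inside edgeR they were 16 higher and 15 lower in shNT, 11 and 22 in shNR4A2, and 10 and 27 in shNR4A3 cells. Of all genes 7467, 7520 and 8666 were called in these fits. The library total alone shifted the median of all genes to -0.207, -0.242 and -0.225. The splits then became 4 and 45, 3 and 52, and 2 and 60, where 8997, 9107 and 9911 of all genes were called. DESeq2 itself called 12 and 15, 10 and 22, and 9 and 27, where it called 6982, 7323 and 8336 of all genes. Its medians were 0.170, 0.160 and 0.163 over all genes with any count, to which no filter was applied.

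In all 3 lines 5 genes were called higher (6.41%, against 14.9% of all genes tested), namely MRPL14, MRPL15, MRPL39, MRPS24 and MRPS28. MRPS24 was by far the most changed. In shNT cells its 6 unstimulated libraries held 14.5 to 17.9 TPM (median 16.5) and its 6 LPS libraries 32.6 to 38.9 TPM (median 36.4), a log2 fold change of 1.37 ± 0.08 (SE, adjusted p = 3.7e-11, edgeR), or 2.58-fold. In shNR4A2 cells it went from 16.1 to 23.5 TPM (median 17.8) to 35.0 to 54.1 TPM (median 45.6), a log2 fold change of 1.52 ± 0.13 (SE, adjusted p = 2.85e-08, edgeR). In shNR4A3 cells it went from 17.8 to 22.8 TPM (median 18.01) to 36.6 to 46.1 TPM (median 40.9), a log2 fold change of 1.33 ± 0.08 (SE, adjusted p = 8.31e-10, edgeR). The groups did not overlap in any line, and the call held under every scaling and test tried. The MRPS24 row shares 23.2% of its exon bases with the read-through row URGCP-MRPS24, so part of its count could belong to that transcript.

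MRPL14, whose bacterial counterpart sits at the interface between the subunits, rose by 0.43 ± 0.08, 0.46 ± 0.08 and 0.39 ± 0.06 in shNT, shNR4A2 and shNR4A3 cells (SE, adjusted p = 0.000131, 0.000123 and 3.16e-05, edgeR). In TPM it overlapped in shNT cells, at 151 to 224 without and 184 to 237 with LPS. MRPL39, a mitochondria-specific protein at the exit tunnel, rose by 0.45 ± 0.08, 0.46 ± 0.09 and 0.25 ± 0.08 (SE, adjusted p = 0.000132, 0.000344 and 0.0131, edgeR). MRPS28, which shares 35.8% of its exon bases with another row, rose by 0.40 ± 0.09, 0.33 ± 0.10 and 0.34 ± 0.09 (SE, adjusted p = 0.000832, 0.0172 and 0.00389, edgeR). The rise of MRPL15 was smaller, at 0.33 ± 0.06, 0.24 ± 0.07 and 0.20 ± 0.06 (SE, adjusted p = 0.000312, 0.014 and 0.00752, edgeR), and with library totals as the only scaling it was -0.010 in shNR4A3 cells. That scaling also ended the calls of MRPL15 in shNT (0.132, adjusted p = 0.0908), MRPL39 in shNR4A3 (0.036, adjusted p = 0.728) and MRPS28 in shNR4A2 and shNR4A3 cells (0.102 and 0.126, adjusted p = 0.409 and 0.21, edgeR). In shNR4A2 cells MRPS36 was also among the 5 largest increases, at 0.31 ± 0.10 (SE, adjusted p = 0.0201, edgeR). That call was lost with library totals (0.083, adjusted p = 0.511, edgeR) and without replicate 1 of 5% CO2 with LPS, replicate 2 of 10% CO2 or replicate 3 of 10% CO2 with LPS, as was the MRPS28 call in shNR4A2 cells without the first or second of these.

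In all 3 lines 16 genes were called lower (20.5%, against 17.3% of all genes tested), and none was higher in one line and lower in another. They were MRPL10, MRPL16, MRPL17, MRPL34, MRPL35, MRPL43, MRPL44, MRPL46, MRPL49, MRPL58, MRPS2, MRPS18B, MRPS23, MRPS26, MRPS27 and MRPS34. MRPS26 fell most in shNT and shNR4A2 cells. In shNT cells it had 45.8 to 65.6 TPM without LPS (median 51.9) and 27.9 to 36.4 TPM with LPS (median 29.0), and in shNR4A2 cells 37.5 to 69.5 TPM (median 48.7) and 20.1 to 23.0 TPM (median 21.4). Its log2 fold changes were -0.61 ± 0.11, -0.92 ± 0.11 and -0.85 ± 0.08 in shNT, shNR4A2 and shNR4A3 cells (SE, adjusted p = 9.42e-05, 1.38e-06 and 2.26e-07, edgeR).

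MRPL34 went from a median of 57.1 to 34.8 TPM in shNT, 53.2 to 31.1 TPM in shNR4A2 and 61.5 to 26.4 TPM in shNR4A3 cells, with log2 fold changes of -0.51 ± 0.08, -0.61 ± 0.10 and -0.88 ± 0.08 (SE, adjusted p = 1.87e-05, 4.17e-05 and 1.41e-07, edgeR). MRPL44, an RNase III-like protein at the exit tunnel, changed by -0.42 ± 0.07, -0.70 ± 0.09 and -0.75 ± 0.08 (SE, adjusted p = 6.85e-05, 8.52e-06 and 2.85e-07, edgeR). MRPL17 changed by -0.49 ± 0.07, -0.56 ± 0.07 and -0.60 ± 0.06 (SE, adjusted p = 8.99e-06, 5.37e-06 and 6.04e-07, edgeR), in the opposite direction to its averaged CO2 difference. MRPS34, among the most abundant of the 78 genes, had 268 to 415 TPM without and 178 to 219.9 TPM with LPS in shNT cells, with changes of -0.43 ± 0.08, -0.63 ± 0.10 and -0.60 ± 0.08 (SE, adjusted p = 0.000358, 4.57e-05 and 7.57e-06, edgeR). In TPM none of these 5 falling genes overlapped between unstimulated and LPS-stimulated libraries in any line. They were named for the size of their falls in these same libraries, so the separation is no further support. The share of all genes without overlap is not given here. TPM is also a share of the library, and with library totals the medians of all genes were -0.207, -0.242 and -0.225. By class, mitochondria-specific small-subunit genes had the lowest medians with LPS, at -0.13, -0.28 and -0.41 in shNT, shNR4A2 and shNR4A3 cells, with 5, 5 and 7 of the 10 called lower. In no line were 35 of the 78 genes called (44.9%, against 41.4% of all genes tested).

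**Figure D5:**
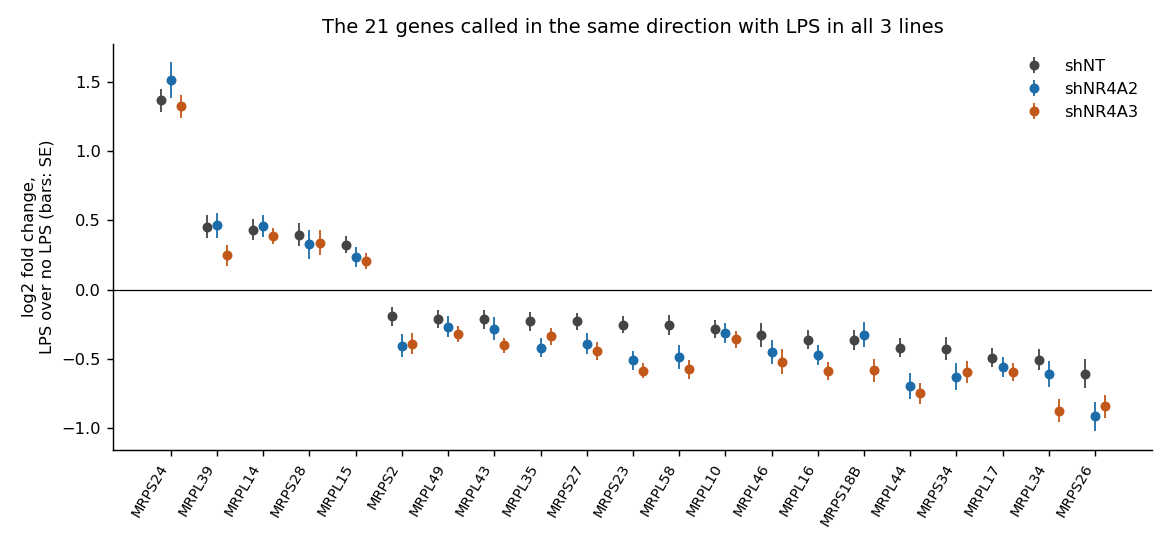
Log2 fold change with LPS over no LPS (vertical axis, bars are SE) in shNT, shNR4A2 and shNR4A3 cells for the 21 mitochondrial ribosomal protein genes called in the same direction in all 3 lines (horizontal axis). MRPS24 stands apart at 1.37, 1.52 and 1.33, and MRPS26 is the lowest in shNT at -0.61.

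The third comparison set each knockdown line against shNT over the 4 CO2 and LPS conditions. Both use the same 12 shNT libraries, so their results are given side by side and not compared, and with a single stable line per hairpin the effect of the depleted receptor and other differences between lines cannot be told apart. In shNR4A2 cells 35 members were called by edgeR's test, 5 higher and 30 lower (39.1% of all genes, 19.3% higher and 19.8% lower), with a median log2 fold change of -0.10. In shNR4A3 cells 27 were called, 4 higher and 23 lower (34.4% of all genes, 16.6% higher and 17.8% lower), with a median of -0.08. All genes had medians of -0.003 and -0.002. In shNR4A2 cells the lower calls were 12 of 30 large-subunit genes classed with a bacterial counterpart and 9 of 21 mitochondria-specific ones. In the small subunit they were 2 of 16 and 7 of 10 in the same order. In shNR4A3 cells the same counts were 11 of 30, 3 of 21, 2 of 16 and 6 of 10.

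In shNR4A2 cells MRPS30 fell most. Its 12 libraries ranged from 32.7 to 62.3 TPM (median 40.5), against 47.7 to 73.1 TPM (median 60.5) in shNT, and its log2 fold change was -0.49 ± 0.04 (SE, adjusted p = 6.78e-10, edgeR). Within each of the 4 conditions the 3 shNR4A2 values lay below the 3 shNT values. MRPL1, the counterpart of bacterial L1, fell by 0.40 ± 0.05 (SE, adjusted p = 6.11e-07, edgeR), MRPL36, a small zinc-binding protein in bacteria, by 0.40 ± 0.06 (SE, adjusted p = 4.12e-06, edgeR), MRPL19 by 0.37 ± 0.06 (SE, adjusted p = 2.19e-05, edgeR) and MRPS27, a pentatricopeptide-repeat protein, by 0.34 ± 0.05 (SE, adjusted p = 1.99e-06, edgeR). Their TPM ranges over 12 libraries overlapped those of shNT, as MRPL1 shows at 26.5 to 48.0 against 35.6 to 62.5. MRPS6, the counterpart of bacterial S6, rose by 0.33 ± 0.06 (SE, adjusted p = 9.56e-05, edgeR), from a median of 18.1 to 22.4 TPM. The other increases were MRPL41 at 0.25 ± 0.08, MRPS24 at 0.24 ± 0.08, MRPL33 at 0.17 ± 0.06 and MRPL10 at 0.13 ± 0.04 (SE, adjusted p = 0.0126, 0.0149, 0.0149 and 0.0161, edgeR). With genes of low counts kept in the test, 22 members were called, 3 higher and 19 lower, and MRPL33 and MRPL10 were no longer called (adjusted p = 0.0523 and 0.183, edgeR). Of all genes 6358 were called in that fit, against 6921 of 17720 with the filter. The fit without the filter tested every row with a count, so these counts are not shares of the same number of genes.

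In shNR4A3 cells MRPS6 rose by 0.43 ± 0.06 (SE, adjusted p = 3.92e-06, edgeR), with 19.7 to 31.4 TPM (median 23.8) against 15.5 to 22.3 TPM (median 18.1) in shNT. MRPS24, MRPS25 and MRPS7 rose by 0.22 ± 0.06, 0.18 ± 0.05 and 0.13 ± 0.04 (SE, adjusted p = 0.00426, 0.006 and 0.00593, edgeR), and MRPS7 was not called with genes of low counts kept in the test (adjusted p = 0.123, edgeR). MRPS31 fell by 0.31 ± 0.06 (SE, adjusted p = 9.91e-05, edgeR), MRPS26 by 0.25 ± 0.07 (SE, adjusted p = 0.00568, edgeR), MRPL22, at the exit tunnel, by 0.23 ± 0.05 (SE, adjusted p = 0.000383, edgeR), and MRPL9 and MRPL3 by 0.21 ± 0.03 and 0.21 ± 0.04 (SE, adjusted p = 7.46e-06 and 0.00019, edgeR). MRPL9 had 116 to 160.3 TPM (median 133) against 139 to 170.3 TPM (median 158), and 38.5% of its exon bases are shared with rows on both strands. MRPS30, the gene that fell most in shNR4A2 cells, was at -0.06 ± 0.04 (SE, adjusted p = 0.235, edgeR). The difference between the lines was not tested. Scaling by library totals alone gave 38 calls in the comparison of shNR4A3 with shNT, 4 higher and 34 lower. Of all genes 6363 were called with that scaling, against 6096 with TMM.

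The rest of the mitochondrial translation system, taken from lists of other genes, was read in the averaged CO2 difference beside the members. In that comparison 17% of all tested genes were called higher and 19.4% lower. Of 5 further ribosomal subunits named otherwise, 4 rose, namely CHCHD1 (0.16 ± 0.03), DAP3 (0.10 ± 0.03), PTCD3 (0.12 ± 0.04) and GADD45GIP1 (0.13 ± 0.05, SE, adjusted p = 0.000591, 0.0037, 0.0096 and 0.0338, edgeR), and AURKAIP1 was at 0.08 ± 0.05 (SE). Of 25 assembly factors 12 rose and 2 fell (median 0.11), with the smallest p for MRM1, a methyltransferase of the large ribosomal RNA, at 0.77 ± 0.09 (SE, adjusted p = 1.13e-07, edgeR). Of 16 translation factors 7 rose and 1 fell (median 0.04), with GFM2, which recycles ribosomes, at 0.41 ± 0.04, and the inner-membrane insertase OXA1L at -0.23 ± 0.03 (SE, adjusted p = 8.22e-10 and 7.12e-08, edgeR). Of 17 mitochondrial aminoacyl-tRNA synthetases 9 rose and 2 fell (median 0.16), with the smallest p for EARS2 at 0.46 ± 0.04 (SE, adjusted p = 5.84e-10, edgeR). The calls of DAP3 and PTCD3 were lost with genes of low counts kept in the test, and that of GADD45GIP1 in 12 alternatives, 10 of them leaving out 1 library (adjusted p from 0.0502 to 0.0738, edgeR). MRM1, EARS2 and GFM2 had larger log2 fold changes than any member, the largest of which was 0.34 for MRPS25.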

How the data were processed

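The deposited files held raw counts of reads per gene, which the authors produced with Trimmomatic 0.36, STAR 2.5.2b on GRCh38 and featureCounts of Subread 1.5.2 according to the submitters' notes. The annotation release and the strand setting are not given in the sources used here. Symbols came from a GENCODE annotation, which matched 56410 of 57500 gene IDs (98.1%). Replicate libraries differed by more than sampling noise (chi-square per degree of freedom 6.62 to 29.6), so each counted as 1 sample. TPM was computed here from the counts and the deposited exon lengths.

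Counts were fitted in edgeR 4.0.16 (R 4.3.3) with TMM scaling, filterByExpr and the robust quasi-likelihood test. The fit for CO2 within a state used its 6 libraries, and the averaged and between-group contrasts used the libraries they name. Adjusted p-values (Benjamini-Hochberg) covered all 17720 genes, with calls at under 0.05, and SE is the log2 fold change over the square root of F. The study's methods name DESeq2, which was run as an alternative (1.42.0), beside other size factors, no low-count filter, a replicate block and leaving out each library. The scripts were tested on simulated data. Rows for the mitochondrial ribosomal RNAs were not analysed here. Some markers of other cell types are not reported here.

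Same-numbered libraries were taken as paired where every correlation of their deviations was over 0.1, which held for CO2 in basal shNR4A2 (0.472 to 0.615) and basal shNR4A3 cells (0.1003 to 0.502). The main fits of these comparisons ignored the pairing, and their blocked fits are given beside them.

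Named genes were the 3 highest and 3 lowest by TPM, the called members with the smallest p (CO2) or largest change (LPS, lines), 10 preset members and the leading genes of the other lists. The members, lists and rules were chosen with earlier results of these data known.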

Additional observations from a re-analysis of the deposited data

How the results depend on the processing

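Call counts for averaged CO2 (30 to 44), for LPS by other scalings than the library total and for the lines moved by less than 1.5 times, except as follows. The fits with library totals tested 17720 genes, and shares for the others are of genes with an adjusted p. CO2 in basal shNT cells gave 3 calls without the low-count filter and 3 by DESeq2 (1.13% and 3% of all genes). LPS-stimulated shNT cells gave 6 with library totals as scaling (1333 over all genes). LPS-stimulated shNR4A2 cells gave 1 without the filter and 1 by DESeq2 (2.75% and 4.36% of all genes). Basal shNR4A3 cells gave 1 with library totals (251 over all genes). They also gave 1 without the filter and 1 by DESeq2 (2.05% and 4.55% of all genes). LPS-stimulated shNR4A3 cells gave 1 with library totals (167 over all genes). With library totals LPS gave 49, 55 and 62 calls in shNT, shNR4A2 and shNR4A3 cells (8997, 9107 and 9911 over all genes). The median of all genes also fell there, and MRPL15 in shNR4A3 cells turned to -0.010. Without the filter shNR4A2 against shNT gave 22 (6358 over all genes, from a test of every row with a count). The causes were not tested.

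With the replicate number as a block, CO2 gave 5 calls in basal shNR4A2, 3 in basal shNR4A3 and 1 in LPS-stimulated shNR4A2 cells. Of all genes 2.04%, 6.06% and 3.49% were called in these fits. The last comparison missed the rule for pairing, since its lowest same-number correlation was 0.067. Its median was 0.164 (highest 0.641), against -0.267 for libraries of different numbers. No other count moved by over 1.5 times under the block. Besides CO2 in basal shNR4A2 and basal shNR4A3 cells, no comparison met the rule for pairing. No main fit used a block, and this includes the fits of those comparisons that met the rule. For averaged CO2 the same-number correlations ran from -0.4705 to 0.833, with a median of 0.330 against -0.188 for libraries of different numbers. For LPS in shNR4A2 cells these medians were 0.380 and -0.225, whereas for CO2 in LPS-stimulated shNT cells they were -0.0965 and -0.189. Whether same-numbered libraries share a source was not tested.

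Leaving out 1 library at a time, CO2 calls ranged from 0 to 9 in basal and 0 to 18 in LPS-stimulated shNT, from 0 to 2 in LPS-stimulated shNR4A2 and from 0 to 1 in LPS-stimulated shNR4A3 cells. The log2 ratio of summed levels was 0.210 in basal shNT, 0.125 in LPS-stimulated shNT and 0.038 in LPS-stimulated shNR4A2 cells on TMM-scaled values per length, and 0.117, 0.039 and 0.095 in LPS-stimulated shNT, LPS-stimulated shNR4A2 and basal shNR4A3 cells without mitochondrially encoded genes. Of the values for named genes under these alternatives, 2720 kept their direction and side of the threshold, 55 lost the call, 2 gained it (MRPL11 and AURKAIP1, averaged CO2 without replicate 2 of shNR4A2 at 5% CO2) and 1 changed sign. With 3 libraries a group and differences mostly under 0.5 in log2, single states resolved few genes.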
